A study of Mus musculus with 8 samples.

Results

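The forkhead (Fox) and Sox genes encode 2 families of DNA-binding transcription factors, and their transcripts were compared between primary lung fibroblasts (pFBs) of WT and HOMO mice. The members were the rows of the deposited gene count table whose symbol is Fox, a letter from a to s and a number, or Sox and a number. This gave 63 of 54532 entries, 44 *Fox* and 19 *Sox* genes. WT pFBs came from wild type female mice on the background given as C57/black. HOMO pFBs came from female mice homozygous for a CRISPR/Cas9 knock-in of human IGFBP5 (hIGFBP5), a secreted protein that binds insulin-like growth factors, driven in every tissue by the Ef1a1 promoter. No agent was given to either genotype. The mice's age, their number and whether each library is a separate animal or culture are not given in the sources used here, so p-values measure the spread between these libraries, which may in part be technical. The cells had grown out of minced lung in medium with serum and were used at passages 3 to 7, so they are mixed outgrowths selected by culture. There were 4 WT and 4 HOMO libraries, each named by genotype and label number (WT1, HOMO1 and so on), and n counts libraries.

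Forkhead factors bind DNA through a winged-helix domain and prefer sites built on TGTTTAC. Sox factors bend DNA through an HMG box and prefer ACAATG or ACAAAG, and most act together with a partner factor on the neighbouring site. In lung mesenchyme, Hedgehog signals from the epithelium maintain *Foxf1* and *Foxl1*, FoxO factors are held in the cytoplasm by insulin and IGF signaling through AKT, and FoxM1 drives mitotic genes in dividing cells. Members are ordered below by these roles.

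Between 17236521 and 31987790 reads were counted per library, so that 3 counts, the floor used here, corresponded to 0.0908 to 0.172 CPM (counts scaled by library size and composition). This floor covers counting error only. Some pairs of libraries were near-identical (WT1 with WT2, HOMO1 with HOMO2, HOMO3 with HOMO4), with biological coefficients of variation of 4.71% to 7.65%, against 30.0% to 56.4% for the other pairs of a genotype. Their counts differed by more than counting noise, which repeat preparations of 1 culture would also do, so whether such pairs are separate cultures is not known. All 8 libraries were kept as labelled, and calls with each pair summed are given beside the counts of DEGs. All 10 fibroblast markers were expressed, at a summed 12940 to 16620 CPM in WT and 14000 to 24380 CPM in HOMO. Macrophage markers summed to 131 to 1965 CPM in WT, highest in WT3 (1965) and WT4 (1142), and to 57.1 to 190 CPM in HOMO. Smooth muscle markers summed to 934 to 2995 CPM in WT and 269 to 1634 CPM in HOMO, where HOMO1 and HOMO2 were the low pair. Markers listed for Schwann cells, the cells that use *Sox10*, summed to 202 to 793 CPM in WT and 192 to 220 CPM in HOMO. Only 4 of these 8 genes passed the filter on low counts and *Cdh19* had no count in any library, so this sum alone does not show Schwann cells. Mesothelial markers summed to 52.3 to 164 CPM in WT and 94.4 to 134 CPM in HOMO. Lung epithelial markers reached at most 0.542 CPM in WT and 15.3 CPM in HOMO, endothelial markers at most 8.52 CPM, ciliated cell markers at most 7.98 CPM and chondrocyte markers at most 2.98 CPM in any library. In bulk RNA, fewer cells of a type and less RNA per cell cannot be told apart. The part of these shifts in the results was not tested, except where values are given beside a gene.

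Of the 63 members, 15 had no count in any library (11 *Fox*, 4 *Sox*), 8 had at most 3 counts in every library, 8 were above that floor but outside the test, and 32 (24 *Fox*, 8 *Sox*) passed the filter on low counts. Of these 32, 5 were differentially expressed genes (DEGs). *Foxp2* and *Foxp4* were upregulated in HOMO, and *Foxc2*, *Foxl1* and *Sox13* were downregulated. To be a DEG, a gene needed an edgeR adjusted p below 0.05 together with a log2 fold change beyond 0.6 in either direction. By this rule 12.1% of all 14150 tested genes were DEGs, 5.94% upregulated and 6.18% downregulated, beside 15.6% of the tested members. The *Fox* genes held 4 of the DEGs (2 upregulated, 2 downregulated) and the *Sox* genes 1. Fitted values were above 0 for 19 tested members and below 0 for 13, with a median log2 fold change of 0.16, beside −0.04 over all tested genes. WT and HOMO levels did not overlap in 12 of the 32 (8 higher in HOMO, 4 lower), that is 37.5% beside 27.3% of all tested genes. An unadjusted p under 0.05 was reached by 13 members, and the 27 members that were not DEGs had edgeR adjusted p-values from 0.0532 to 0.853. DESeq2, which gave an adjusted p for 36 members, called 10 of them against 16.5% of its genes, and limma-voom with sample weights called 14 of 32 against 25.3%. The limma-voom weights were 2.24, 8.14, 0.0927 and 0.165 in WT1 to WT4, so the near-identical WT1 and WT2 dominated its WT side. In HOMO1 to HOMO4 the weights were 1.01, 0.910, 1.78 and 2.185. When each near-identical pair was summed to 1 unit, leaving 3 WT and 2 HOMO units, edgeR called 0 of 34 members and 0 of 16130 genes, while 5 members and 2057 genes had an unadjusted p under 0.05.

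**Figure D1:**
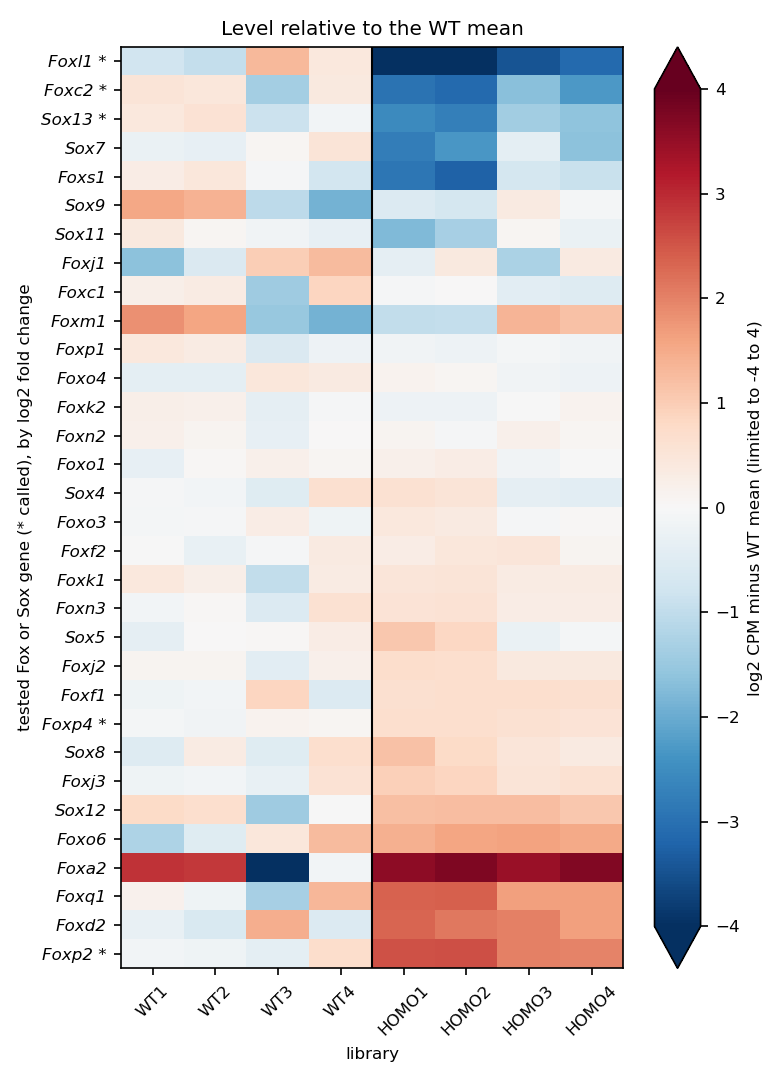
Level of the 32 tested members (rows, ordered by log2 fold change, DEGs starred) in each library (columns), as log2 CPM minus the mean of the 4 WT libraries. *Foxl1*, *Foxc2* and *Sox13* are low in all 4 HOMO columns, *Foxp2* is high in all 4, and *Foxa2*, *Foxm1* and *Sox9* differ most among the WT columns.

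**Figure D2:**
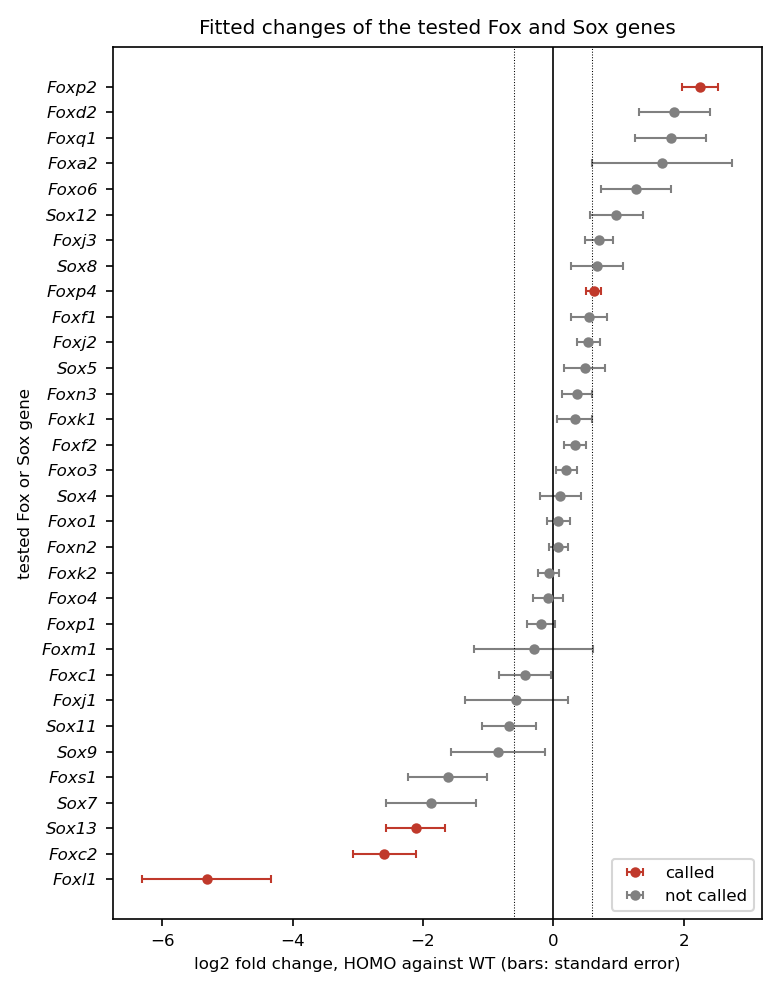
Log2 fold change of HOMO against WT with its standard error for the 32 tested members, DEGs in red, with dotted lines at the threshold of 0.6. The fitted values run from −5.32 for *Foxl1*, whose HOMO libraries lie at the floor, to 2.25 for *Foxp2*.

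The promoter windows of 4 genes are shown because 2 of them hold the forkhead letters GTAAACA and 2 belong to DEGs without them. Each is the 250 bases before the RefSeq start (GRCm38.p6), written in the direction of transcription. Capitals mark GTAAACA on the shown strand or TGTTTAC where it lies on the other strand. The windows are Fendrr at chr8:121083111-121083360, Sox12 at chr2:152398047-152398296, Foxp4 at chr17:47924633-47924882 and Sox13 at chr1:133424213-133424462, all on the minus strand.
Fendrr: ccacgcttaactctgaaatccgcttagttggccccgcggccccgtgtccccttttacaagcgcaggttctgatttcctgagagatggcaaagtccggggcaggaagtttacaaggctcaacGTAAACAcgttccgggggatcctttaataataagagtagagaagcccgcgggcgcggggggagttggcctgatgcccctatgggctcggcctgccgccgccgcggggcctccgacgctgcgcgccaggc
Sox12: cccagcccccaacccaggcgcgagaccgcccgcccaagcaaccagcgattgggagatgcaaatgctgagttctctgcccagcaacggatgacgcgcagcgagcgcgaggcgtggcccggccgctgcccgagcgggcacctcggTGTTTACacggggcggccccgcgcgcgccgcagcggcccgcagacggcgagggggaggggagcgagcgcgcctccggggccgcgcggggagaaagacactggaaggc
Foxp4: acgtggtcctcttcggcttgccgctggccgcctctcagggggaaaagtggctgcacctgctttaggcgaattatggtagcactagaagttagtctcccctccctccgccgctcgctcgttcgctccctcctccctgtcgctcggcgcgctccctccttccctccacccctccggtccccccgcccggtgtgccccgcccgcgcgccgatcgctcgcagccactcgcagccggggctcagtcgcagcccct
Sox13: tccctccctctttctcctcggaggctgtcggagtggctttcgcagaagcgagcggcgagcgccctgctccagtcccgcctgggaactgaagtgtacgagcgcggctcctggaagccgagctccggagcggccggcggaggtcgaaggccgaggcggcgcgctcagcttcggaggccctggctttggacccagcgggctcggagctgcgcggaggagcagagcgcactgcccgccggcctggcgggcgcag
The match began at base −129 from the start in *Fendrr* and at −107 in *Sox12*. Of 32851 windows of all genes, 3.17% held GTAAACA on either strand, and 2 of the 51 windows of members did. The Sox letters ACAATG were in 10.7% of all windows and 5 of 51 member windows, and ACAAAG in 16.5% and 13 of 51. A match describes the letters only. A window was at hand for 18 of the 32 tested members, and *Sox13*'s start lay 165 bases from the GENCODE start.

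*Foxp2*, a FoxP repressor of the developing lung and brain, showed the largest increase among the tested members. Its levels were 11.0, 10.5, 9.18 and 19.5 CPM in WT1 to WT4 and 70.3, 72.6, 48.9 and 48.0 CPM in HOMO1 to HOMO4. Every HOMO library stood above every WT library, and HOMO1 and HOMO2 were the highest pair. The mean rose from 12.5 ± 4.71 to 59.9 ± 13.3 CPM (SD, n = 4 each), and its log2 fold change was 2.25 (SE 0.28, edgeR adjusted p = 0.00350). The gene lies at chr6:14901349-15441977 (GRCm38), and leaving out any of the 8 libraries in turn gave log2 fold changes of 2.13 to 2.55 and kept it a DEG. *Foxp4*, its close relative, had 66.9, 63.0, 78.0 and 73.4 CPM in WT1 to WT4 and 111, 112, 106 and 102 CPM in HOMO1 to HOMO4. The genotypes did not overlap and the spread within each was small. Its mean rose from 70.3 ± 6.71 to 108 ± 4.85 CPM (SD, n = 4 each), and its log2 fold change was 0.62 (SE 0.12, edgeR adjusted p = 0.0137), just above the threshold. Without WT1, WT2, HOMO1 or HOMO2 it was no longer a DEG, with log2 fold changes of 0.59, 0.56, 0.60 and 0.60 and edgeR adjusted p-values of 0.0358, 0.0417, 0.0584 and 0.0595.

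*Foxp1*, the third FoxP gene expressed in lung, had 269, 253, 134 and 175 CPM in WT1 to WT4 and 175 to 189 CPM in HOMO. The HOMO libraries lay within the WT range, and the log2 fold change was −0.19 (SE 0.22, edgeR adjusted p = 0.579). *Foxp3*, which specifies regulatory T cells, was not tested in edgeR. Its counts were 0, 1, 0 and 3 in WT1 to WT4 against 9, 12, 3 and 0 in HOMO1 to HOMO4 (exact permutation p = 0.171, two-sided). Its exons overlap other genes on both strands. The counting's use of strand is not stated, so reads of overlapping genes cannot be told apart.

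**Figure D3:**
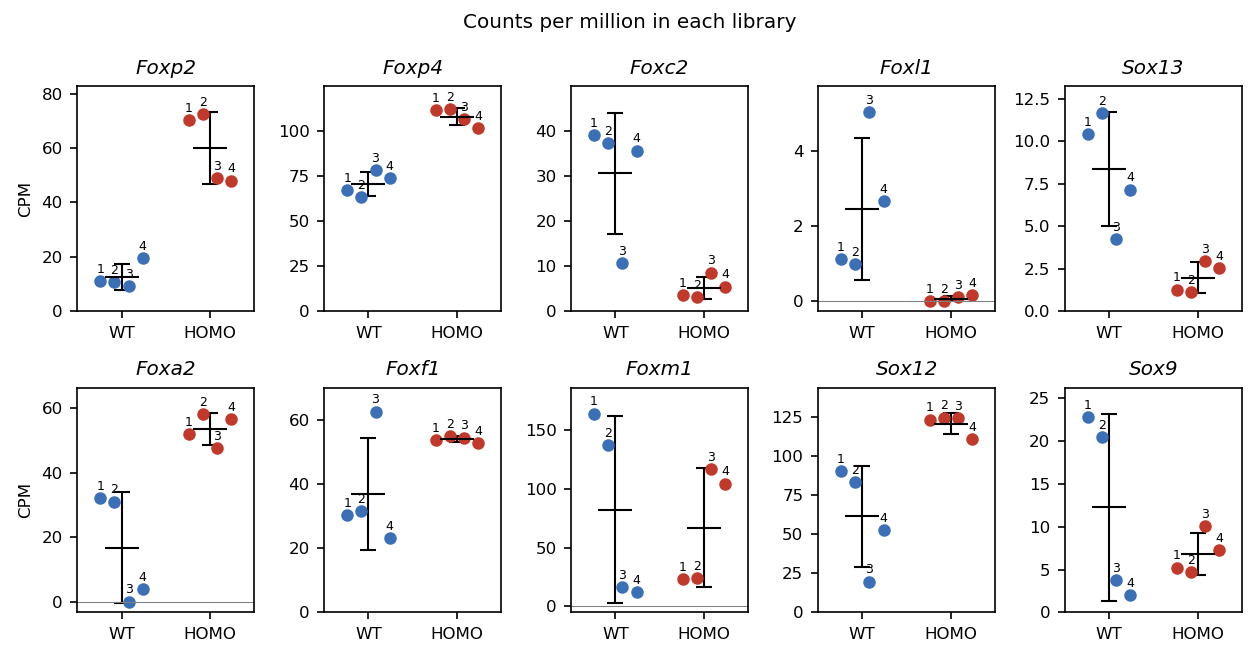
CPM of 10 members in each library, with the replicate number beside each point and the mean ± SD of the 4 libraries per genotype, each panel on its own scale. *Foxp2*, *Foxp4*, *Foxc2*, *Foxl1*, *Sox13*, *Foxa2* and *Sox12* do not overlap between genotypes, whereas *Foxm1* and *Sox9* split the libraries in pairs.

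The genes from *Fendrr* to *Foxl1* on chromosome 8 did not move together. *Foxf1*, a Hedgehog-induced factor that lung mesenchyme requires, had 30.3, 31.5, 62.6 and 23.2 CPM in WT1 to WT4 and 53.8, 54.9, 54.4 and 52.8 CPM in HOMO1 to HOMO4. The HOMO libraries were almost equal and lay above 3 WT libraries and below WT3. The means were 36.9 ± 17.5 and 54.0 ± 0.900 CPM (SD, n = 4 each), with a log2 fold change of 0.55 (SE 0.28, edgeR adjusted p = 0.212). Without WT3 it was 0.93, with an edgeR adjusted p of 0.00492, and *Foxf1* was then a DEG. That was the only 1 of 8 fits leaving out a library that called it, and the edgeR adjusted p reached 0.345. *Fendrr*, the long noncoding RNA transcribed away from *Foxf1* on the opposite strand, had 8.33, 7.16, 14.5 and 3.48 CPM in WT1 to WT4 and 32.0, 32.3, 24.2 and 24.4 CPM in HOMO1 to HOMO4. It was upregulated without overlap, with a log2 fold change of 1.76 (SE 0.38, edgeR adjusted p = 0.0227). *Mthfsd*, the gene on the other side of *Foxf1*, had 30.5 to 36.0 CPM in WT and 49.4 to 76.0 CPM in HOMO and was also upregulated, by 0.95 on the log2 scale (SE 0.16, edgeR adjusted p = 0.00986).

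*Foxc2* and *Foxl1*, which lie 31.8 and 43.6 kb from *Foxf1* (lower end to lower end), were both downregulated. *Foxc2*, a regulator of mesenchymal and lymphatic development at chr8:121116171-121118895, had 39.0, 37.3, 10.6 and 35.6 CPM in WT1 to WT4 and 3.48, 3.06, 8.47 and 5.41 CPM in HOMO1 to HOMO4. The genotypes did not overlap, although WT3 came close to HOMO3. The mean fell from 30.6 ± 13.5 to 5.10 ± 2.47 CPM (SD, n = 4 each), with a log2 fold change of −2.59 (SE 0.48, edgeR adjusted p = 0.0133). Without HOMO1 or HOMO2 the edgeR adjusted p was 0.0535 or 0.0513. *Foxl1*, which marks mesenchymal cells beneath epithelia, at chr8:121127940-121130644, yielded counts of 20, 23, 88 and 69 in WT1 to WT4 against 0, 0, 2 and 3 in HOMO1 to HOMO4. All HOMO libraries were at or under the floor. The WT mean of 2.46 ± 1.89 CPM (SD, n = 4) made the level at least 18.7-fold lower in HOMO, computed against 3 counts per library (edgeR adjusted p = 0.0133). Without HOMO1 the edgeR adjusted p was 0.0501. Genes on chromosome 8 had a median log2 fold change of 0.38, so that relative to their chromosome *Foxf1* stood at 0.18 and *Foxc2* at −2.96.

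**Figure D4:**
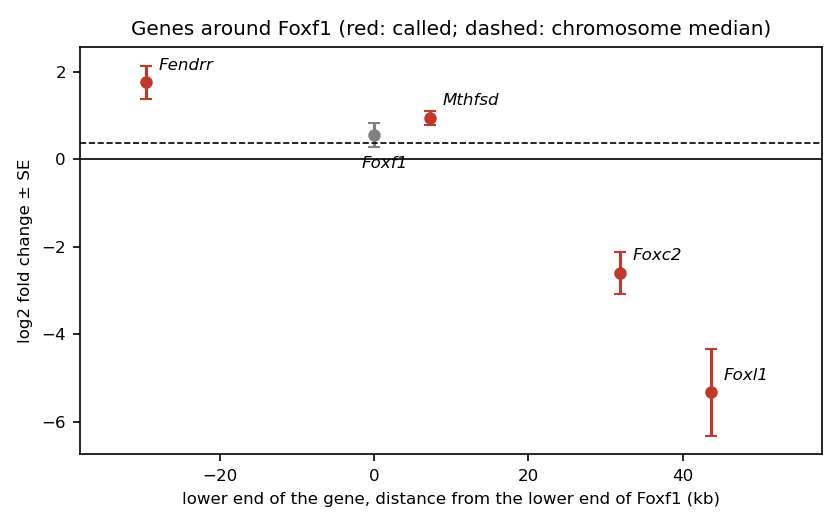
Log2 fold change ± SE of 5 genes around *Foxf1* (vertical axis) against their distance from its lower end in kb (horizontal axis), DEGs in red, with a dashed line at the chromosome's median of 0.38. *Fendrr* and *Mthfsd* lie above the line and *Foxc2* and *Foxl1* far below it. The value of *Foxl1* depends on the fit's prior count, because its HOMO libraries are at the floor.

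*Foxf2*, the relative of *Foxf1* in lung and gut mesenchyme, had 21.7, 17.8, 20.8 and 27.5 CPM in WT1 to WT4 and 26.9, 29.3, 30.6 and 23.6 CPM in HOMO1 to HOMO4. Only WT4 lay among the HOMO libraries, and the log2 fold change was 0.33 (SE 0.17, edgeR adjusted p = 0.218). Of the 14 Hedgehog pathway genes that stand upstream of *Foxf1* and *Foxl1*, 8 were tested. Of these, 2 were upregulated and 0 downregulated, beside 12.1% DEGs among all tested genes. Their median log2 fold change was 0.18 beside −0.04 over all tested genes. The upregulated pair were *Gli2*, an effector of the pathway, with 12.9 to 20.1 CPM in WT and 36.0 to 49.5 CPM in HOMO (log2 fold change 1.33, SE 0.19, edgeR adjusted p = 0.00538), and *Boc*, a coreceptor, with 29.3 to 61.2 and 83.0 to 109 CPM (log2 fold change 0.99, SE 0.22, edgeR adjusted p = 0.0242). *Shh* had no count in any library. *Gli1*, a target that reports pathway activity, had 0 to 9 counts per library and was not tested.

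Among the other mesenchymal forkhead genes, *Foxd2* and *Foxq1* were separated between genotypes without being DEGs, while *Foxs1* and *Foxc1* overlapped. Over all tested genes, 27.3% did not overlap. *Foxd2*, a factor of somite and kidney mesenchyme, had 0.619, 0.472, 2.24 and 0.503 CPM in WT1 to WT4 and 4.19, 3.63, 3.40 and 2.61 CPM in HOMO1 to HOMO4. The genotypes did not overlap, WT3 was the high WT library, and the log2 fold change of 1.86 (SE 0.54) had an edgeR adjusted p of 0.0532. Without WT3 it was 2.69 with an edgeR adjusted p of 0.00235, the only 1 of 8 fits leaving out a library that called it. Across these fits the edgeR adjusted p reached 0.142. *Foxq1*, known from hair and epithelial biology, had 1.46, 1.12, 0.459 and 3.37 CPM in WT1 to WT4 and 6.91, 7.17, 4.16 and 4.21 CPM in HOMO1 to HOMO4, again without overlap (log2 fold change 1.80, SE 0.55, edgeR adjusted p = 0.0617). Without WT4 the log2 fold change was 2.46 with an edgeR adjusted p of 0.0174, and *Foxq1* was then a DEG. This too was 1 of 8 such fits, and the edgeR adjusted p reached 0.162. The noncoding gene *A530084C06Rik* covers 66.1% of the *Foxq1* exon length on the opposite strand. *Foxs1*, found in pericytes and neural crest derivatives, had 14.0, 15.6, 11.0 and 6.70 CPM in WT1 to WT4 and 1.43, 1.12, 6.84 and 6.02 CPM in HOMO1 to HOMO4. HOMO3 just passed WT4, and the log2 fold change was −1.62 (SE 0.61, edgeR adjusted p = 0.107). HOMO1 and HOMO2 were also the libraries with the lowest smooth muscle marker sum, 269 and 279 CPM, against 1634 and 1614 CPM in HOMO3 and HOMO4. The part of that difference in the *Foxs1* values was not tested. *Foxc1*, the relative of *Foxc2* in eye and bone mesenchyme, had 41.2, 44.7, 13.2 and 64.6 CPM in WT1 to WT4 and 24.6 to 35.8 CPM in HOMO. WT spanned the HOMO range (log2 fold change −0.43, SE 0.40, edgeR adjusted p = 0.489), while without WT3 it was −0.73 with an edgeR adjusted p of 0.0474. Only this 1 of 8 such fits called *Foxc1*, and the edgeR adjusted p reached 0.848.

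*Foxd1*, a marker of stromal progenitors, was not tested in edgeR and lay near the floor of 3 counts. It yielded counts of 1, 3, 4 and 4 in WT1 to WT4 and 0 in each HOMO library. WT1 and WT2 were thus at or under the floor. Computed against 3 counts per library, the level of *Foxd1* was at least 1.08-fold lower in HOMO. The two-sided exact permutation p of its CPM was 0.0286, the smallest that 4 libraries against 4 allow and not adjusted for the 8 members tested in this way. Another 6 members of this kind had exact permutation p-values from 0.143 to 1. *Foxl2*, an ovarian factor, yielded counts of 1, 0, 17 and 2 in WT1 to WT4 and 0 in HOMO, so that WT3 held most of its reads.

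*Foxa2*, the pioneer factor of lung epithelium and other endoderm, had its lowest and most scattered levels in WT. Its levels were 32.1, 31.0, 0 and 3.99 CPM in WT1 to WT4 and 51.9, 58.2, 47.5 and 56.6 CPM in HOMO1 to HOMO4. WT3 had 0 counts, which allows up to 0.172 CPM there, while the 4 HOMO libraries were alike and above every WT library. The means were 16.8 ± 17.2 and 53.6 ± 4.82 CPM (SD, n = 4 each), and the log2 fold change of 1.67 had an SE of 1.08 and an edgeR adjusted p of 0.316. The summed lung epithelial markers stood at 0.225, 0.429, 0.0574 and 0.542 CPM in WT1 to WT4, and at 1.34, 7.05, 15.3 and 4.66 CPM in HOMO1 to HOMO4. Within HOMO, HOMO3 had the highest sum and the lowest *Foxa2* level. The part of this marker rise in the *Foxa2* values was not tested. *Krt5* had 0 counts everywhere, *Nkx2-1* had 3 counts in HOMO3 and 0 elsewhere, and *Epcam* had 45 counts in HOMO4 and at most 1 in every other library. Most of the sum in HOMO3 came from the remaining markers, *Sftpc*, *Sftpb*, *Sftpa1* and *Scgb1a1*. *Cdh1*, which encodes E-cadherin, was the 1 marker of the 8 tested in edgeR and was upregulated (log2 fold change 2.77, SE 0.76, edgeR adjusted p = 0.0462), from 0 to 13 counts in WT and 26 to 47 in HOMO. DESeq2 tested 5 of these markers and called 3, all upregulated. *Foxa1* and *Foxa3*, which share targets with *Foxa2* in endoderm, had at most 2 counts per library. *Foxj1*, the master factor of motile cilia, yielded counts of 1, 5, 14 and 26 in WT1 to WT4 against 6, 17, 2 and 10 in HOMO1 to HOMO4 (log2 fold change −0.57, SE 0.79, edgeR adjusted p = 0.651).

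*Foxm1* divided the libraries within each genotype and not between genotypes. It had 164, 137, 16.1 and 12.2 CPM in WT1 to WT4 and 23.0, 23.9, 117 and 104 CPM in HOMO1 to HOMO4. WT1, WT2, HOMO3 and HOMO4 were high and the other 4 libraries low. The means were 82.3 ± 79.4 CPM in WT and 66.9 ± 50.5 CPM in HOMO (SD, n = 4 each), with a log2 fold change of −0.30 (SE 0.91, edgeR adjusted p = 0.853). The sign turned when WT1 or WT2 was left out. The 20 FoxM1 target genes, which include mitotic kinases and cyclins such as *Plk1* and *Ccnb1*, were all tested. Their summed level was 1818, 1600, 296 and 116 CPM in WT1 to WT4 and 260, 247, 1363 and 1247 CPM in HOMO1 to HOMO4, the same libraries high and low as for *Foxm1*. None was called by edgeR or DESeq2 (0 of 20), beside 12.1% and 16.5% of all genes that each tested. At an unadjusted p under 0.05 in edgeR the number was also 0. Of the 20, 18 had a log2 fold change below 0, with a median of −0.34 beside −0.04 over all tested genes.

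**Figure D5:**
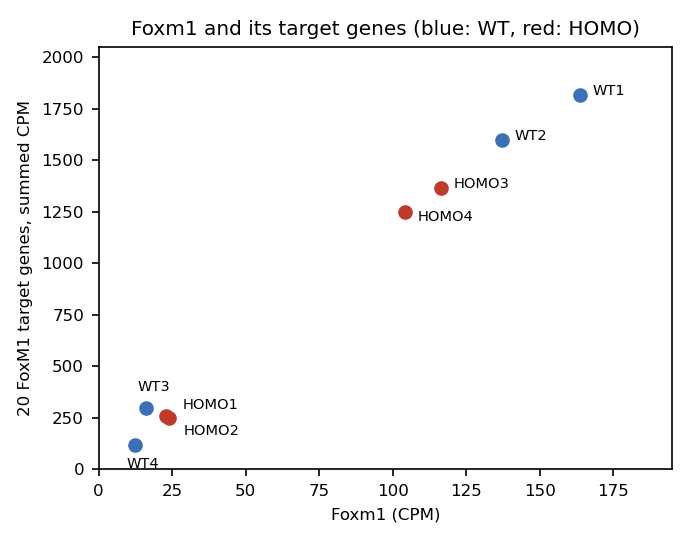
Summed CPM of 20 FoxM1 target genes (vertical axis) against *Foxm1* CPM (horizontal axis) in each library, WT in blue and HOMO in red. The libraries form 2 clusters, each with 2 WT and 2 HOMO libraries, at 12.2 to 23.9 and at 104 to 164 CPM of *Foxm1*.

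The FoxO genes, which insulin and IGF signaling restrain at the protein level, included no DEG among 4 tested. *Foxo1* had 11.0 to 16.1 CPM in WT and 12.6 to 17.0 CPM in HOMO (log2 fold change 0.08, SE 0.18, edgeR adjusted p = 0.804). *Foxo3*, at 119, 121, 152 and 110 CPM in WT1 to WT4 and 167, 160, 121 and 129 CPM in HOMO1 to HOMO4, had a log2 fold change of 0.20 (SE 0.16, edgeR adjusted p = 0.412). *Foxo4* had 26.0, 25.7, 46.2 and 43.2 CPM in WT1 to WT4 and 29.4 to 37.6 CPM in HOMO, all HOMO libraries lying between the WT pairs (log2 fold change −0.08, SE 0.23, edgeR adjusted p = 0.851). *Foxo6*, a form best known from brain, was low and separated, with 0.394, 0.729, 1.49 and 2.71 CPM in WT1 to WT4 and 2.99, 3.36, 3.45 and 3.16 CPM in HOMO1 to HOMO4 (log2 fold change 1.27, SE 0.53, edgeR adjusted p = 0.136). Without WT4 it was 1.89 with an edgeR adjusted p of 0.0342, the only 1 of 8 fits leaving out a library that called it. Across these fits the edgeR adjusted p reached 0.256. Of 22 FoxO target genes, 20 were tested, 2 were upregulated and 1 downregulated, beside 12.1% DEGs among all tested genes. Their median log2 fold change was 0.11 beside −0.04 over all tested genes. *Klf2*, a zinc finger factor of quiescent cells, rose from 8.32 ± 2.12 to 34.1 ± 10.6 CPM (SD, n = 4 each, log2 fold change 2.04, SE 0.28, edgeR adjusted p = 0.00469). *Bcl2l11*, which encodes the pro-apoptotic protein Bim, rose from 11.8 ± 3.40 to 31.5 ± 12.6 CPM (SD, n = 4 each, log2 fold change 1.41, SE 0.33, edgeR adjusted p = 0.0291). *Pdk4*, a kinase that inhibits pyruvate dehydrogenase, fell from 27.9 ± 1.11 to 7.88 ± 1.96 CPM (SD, n = 4 each, log2 fold change −1.83, SE 0.20, edgeR adjusted p = 0.00217). The called targets therefore moved in both directions.

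The FoxK, FoxJ and FoxN genes are broadly expressed regulators of metabolism and growth, apart from *Foxj1* in cilia and *Foxn1* in thymus. Of 9 members 7 were tested and 0 were DEGs, beside 12.1% DEGs among all tested genes. Their log2 fold changes ran from −0.57 to 0.70, with a median of 0.33. *Foxj3* had the 0.70 (SE 0.22, edgeR adjusted p = 0.0641) and overlapped between genotypes. DESeq2 (adjusted p = 0.0443), limma-voom (adjusted p = 0.000323) and edgeR with upper-quartile normalization (adjusted p = 0.0468) called it. Of 8 fits leaving out a library, only that without WT4 called it, and the edgeR adjusted p reached 0.175. *Foxj2* had 40.1, 39.6, 27.8 and 42.9 CPM in WT1 to WT4 and 61.0, 59.5, 49.1 and 48.5 CPM in HOMO1 to HOMO4. The genotypes did not overlap, with a log2 fold change of 0.54 (SE 0.17, edgeR adjusted p = 0.0671).

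The SoxC genes *Sox4*, *Sox11* and *Sox12* act redundantly in the survival and growth of mesenchymal and neural progenitors, and none of the 3 was a DEG. *Sox12* had 90.1, 83.0, 19.6 and 52.5 CPM in WT1 to WT4 and 123, 124, 124 and 111 CPM in HOMO1 to HOMO4. All HOMO libraries lay above all WT libraries, but the WT libraries spread widely, so that the log2 fold change of 0.97 (SE 0.40) had an edgeR adjusted p of 0.130. Without WT3 it was 0.68 with an edgeR adjusted p of 0.0403, the only 1 of 8 fits leaving out a library that called it. Across these fits the edgeR adjusted p reached 0.245. *Sox4* had 107, 103, 79.5 and 173 CPM in WT1 to WT4 and 170, 160, 87.3 and 82.5 CPM in HOMO1 to HOMO4. HOMO1, HOMO2 and WT4 were the high libraries (log2 fold change 0.11, SE 0.32, edgeR adjusted p = 0.841). Another gene covers 54.6% of the *Sox4* exon length on the opposite strand. *Sox11* had 12.8, 10.3, 8.89 and 7.78 CPM in WT1 to WT4 and 2.81, 3.81, 10.2 and 8.02 CPM in HOMO1 to HOMO4, low in HOMO1 and HOMO2 alone (log2 fold change −0.68, SE 0.41, edgeR adjusted p = 0.287).

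*Sox13*, a SoxD factor that lacks an activation domain of its own and is known from T cells and arterial walls, was the 1 *Sox* DEG. It had 10.4, 11.7, 4.25 and 7.16 CPM in WT1 to WT4 and 1.25, 1.09, 2.94 and 2.51 CPM in HOMO1 to HOMO4. The genotypes did not overlap, with WT3 and HOMO3 nearest to each other. The mean fell from 8.37 ± 3.34 to 1.95 ± 0.917 CPM (SD, n = 4 each), and its log2 fold change was −2.11 (SE 0.45, edgeR adjusted p = 0.0207). The gene lies at chr1:133382303-133424377. Without HOMO1 or HOMO2 the edgeR adjusted p was 0.0734 or 0.0700, and it was no longer a DEG. *Sox5*, its relative and a partner of SOX9 in cartilage, had 13.0, 16.8, 17.3 and 20.6 CPM in WT1 to WT4 and 35.4, 29.5, 13.9 and 15.8 CPM in HOMO1 to HOMO4. Only HOMO1 and HOMO2 lay above WT (log2 fold change 0.48, SE 0.32, edgeR adjusted p = 0.322). *Sox6*, which acts with *Sox5*, was not tested in edgeR. Its counts were 0, 0, 13 and 13 in WT1 to WT4 against 0, 2, 2 and 1 in HOMO1 to HOMO4 (exact permutation p = 0.429, two-sided).

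*Sox9*, the SoxE factor that directs cartilage and distal lung epithelium, varied more within WT than between genotypes. It had 22.8, 20.4, 3.73 and 2.01 CPM in WT1 to WT4 and 5.22, 4.69, 10.04 and 7.27 CPM in HOMO1 to HOMO4. WT1 and WT2 stood above, and WT3 and WT4 below, every HOMO library (log2 fold change −0.85, SE 0.72, edgeR adjusted p = 0.446). *Sox8* had 0.563, 1.07, 0.574 and 1.39 CPM in WT1 to WT4 and 2.01, 1.48, 1.22 and 1.10 CPM in HOMO1 to HOMO4, with overlap (log2 fold change 0.67, SE 0.40, edgeR adjusted p = 0.275). *Sox10*, which specifies neural crest and Schwann cells, had at most 1 count per library. Of 16 cartilage genes that SOX9 activates, 6 were tested, 2 were upregulated and 1 downregulated, beside 12.1% DEGs among all tested genes. Their median log2 fold change was −0.08 beside −0.04 over all tested genes. *Col27a1*, a cartilage collagen, had 2.19 to 9.07 CPM in WT and 25.7 to 61.3 CPM in HOMO (log2 fold change 3.19, SE 0.48, edgeR adjusted p = 0.00691). *Col11a2*, another, had 1.74 to 8.59 and 11.7 to 18.7 CPM (log2 fold change 1.96, SE 0.51, edgeR adjusted p = 0.0384), while the matrix adaptor gene *Matn4* had 1.32 to 1.91 and 0.303 to 0.551 CPM (log2 fold change −1.99, SE 0.33, edgeR adjusted p = 0.00856). The defining cartilage genes *Col2a1* and *Acan* had at most 7 and 13 counts per library.

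The SoxF genes, which are endothelial factors, were low. *Sox7* yielded counts of 12, 15, 15 and 31 in WT1 to WT4 against 1, 3, 12 and 4 in HOMO1 to HOMO4, or 0.644 to 1.20 CPM and 0.0446 to 0.608 CPM. The genotypes did not overlap, and the log2 fold change of −1.88 (SE 0.69) had an edgeR adjusted p of 0.101. Without HOMO3 it was −2.90 with an edgeR adjusted p of 0.0319, the only 1 of 8 fits leaving out a library that called it. Across these fits the edgeR adjusted p reached 0.250. The 8 endothelial markers summed to 2.42 to 8.52 CPM in WT and 2.68 to 6.03 CPM in HOMO. Of these, 2 were at or under the floor in every library, among them *Emcn* with at most 2 counts. In edgeR 2 were tested and 0 were DEGs, while DESeq2 called 1 of the 5 it tested, downregulated. *Sox17* and *Sox18* had at most 1 and 5 counts in any library. The 5 SoxB genes, which mark neural and epithelial stem cells and include *Sox2*, had at most 1 count, and neither *Sox15* nor *Sox30* reached the test.

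Levels can be compared between genes only per length, as RPKM (CPM per kilobase of exon, over both genotypes). The highest mean RPKM among members was that of *Sox4* (25.1), followed by *Sox12* (20.4), *Foxf1* (18.8), *Foxk2* (18.7), *Foxp4* (18.1) and *Foxo3* (17.8). In WT these were 24.1 ± 8.39, 13.8 ± 7.23, 15.3 ± 7.24, 19.2 ± 3.47, 14.3 ± 1.36 and 16.6 ± 2.43 RPKM (SD, n = 4). For *Sox4*, reads of the gene that covers 54.6% of its exon length on the opposite strand cannot be told apart. *Sox12*, *Foxf1* and *Foxp4* lay within each other's spread in WT, while *Sox4* and *Sox12*, and *Foxk2* and *Foxp4*, differed there by more than either SD. *Foxc2* stood at 11.2 ± 4.93 RPKM in WT, near *Foxf1*, and at 1.87 ± 0.905 RPKM in HOMO (SD, n = 4 each). *Foxp2*, despite its increase, reached 3.67 ± 0.813 RPKM in HOMO against 21.9 ± 0.984 RPKM for *Foxp4* (SD, n = 4 each). The lowest tested members were *Sox7* (0.164 RPKM) and *Foxj1* (0.165 RPKM).

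The members repeated the pairing of the libraries. Over the 32 tested members, the median absolute difference on the log2 CPM scale was 0.13 between WT1 and WT2, 0.09 between HOMO1 and HOMO2 and 0.13 between HOMO3 and HOMO4. It was 0.61 to 0.83 for the other WT pairs and 0.33 to 0.42 for the other HOMO pairs. The SD of log2 CPM was larger in WT than in HOMO for 25 of the 32 members (78.1%), beside 81.6% of all tested genes. This wider spread in WT was therefore shared by most genes.

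Of 16 listed partners and neighbours of these factors, 12 were tested, 4 were upregulated and 1 downregulated, beside 12.1% DEGs among all tested genes. Their median log2 fold change was 0.38 beside −0.04 over all tested genes. *Fendrr* is described above. The homeobox genes *Meis2* and *Meis1* had 13.8 to 34.6 and 38.4 to 77.5 CPM in WT against 55.7 to 66.5 and 117 to 156 CPM in HOMO. Neither overlapped between genotypes, with log2 fold changes of 1.32 (SE 0.25, edgeR adjusted p = 0.0142) and 1.10 (SE 0.23, edgeR adjusted p = 0.0194). *Tbx5*, a T-box factor required for lung growth, had 17.2 to 36.4 CPM in WT and 10.8 to 14.3 CPM in HOMO (log2 fold change −1.06, SE 0.28, edgeR adjusted p = 0.0391).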

How the data were processed

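Poly-A selected RNA of pFBs from female mice was sequenced in 4 WT and 4 HOMO libraries. Per the labels and the methods, the authors deposited raw counts per gene, made with fastp trimming, STAR alignment against mm10 and featureCounts. Versions and the strand setting are not given in the sources used here. The table carries the label "outlierout", and what it refers to is not stated. Samples were grouped by the genotype in their labels, and 0 columns were left aside. Depth was 17236521 to 29028769 counts in WT and 19009027 to 31987790 in HOMO libraries, and the floor was 3 counts per library.

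HOMO and WT were compared with the two-sided quasi-likelihood F test of edgeR 4.0.16 (R 4.3.3) after TMM normalization and filterByExpr, which left 14150 genes, with Benjamini-Hochberg adjustment over these. DEGs needed an adjusted p below 0.05 and a log2 fold change beyond 0.6 in either direction. Each standard error is the size of the log2 fold change over the root of F, and a prior count of 2 enters log2 CPM. Members above the floor but outside the test were compared by exact permutation of CPM over 70 assignments. The scripts were tested on simulated data. Positions, exon lengths and exon overlaps are from GENCODE M21 (GRCm38, that is mm10), which matched all 63 members, and promoter windows from RefSeq on GRCm38.p6 (41 members matched). Alternatives were DESeq2 1.42.0, limma 3.58.1 (voom with sample weights), RLE and upper-quartile normalization, no filter, CPM above 1 in 4 libraries, no fold threshold, a replicate block, near-identical libraries summed, and leaving out each library.

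Members named with their values are the DEGs, those whose genotypes do not overlap, and those of listed roles in mesenchyme, proliferation, FoxO, FoxP and the Sox subgroups; of each related list, at most 4 DEGs with the largest change are named, and the other genes given stand beside a result. The members, lists and tests were chosen with earlier results of these data known. The human transgene and the protein measurements were not analysed here. A member that meets this rule is not reported here.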

Additional observations from a re-analysis of the deposited data

Results flagged for a closer look

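Of 64 groups (32 tested members in 2 genotypes), 4 held a library far from the other 3 of its genotype by Dixon's test. Chance flags about 5% of groups where the 4 values are independent. The near-identical pairs may not be, so the number of flags cannot be set against that share. *Foxc2* in WT3 stood at 3.41 log2 CPM where the other 3 WT libraries had 5.16 to 5.29. *Foxk1*, a regulator of glycolysis, stood in WT3 at 4.77 log2 CPM against 6.0 to 6.16. *Foxd2* in WT3 stood at 1.22 log2 CPM against −0.83 to −0.50. *Sox12* in HOMO4 stood at 6.79 log2 CPM against 6.94 to 6.96. The 3 values in WT3 belong to the library with the highest macrophage and smooth muscle marker sums among the WT libraries, 1965 and 2995 CPM. The part of these sums in the 3 values was not tested.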

How the results depend on the processing

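With all 8 libraries, 1716 genes were DEGs in edgeR, and 2913 in DESeq2, 3573 in limma-voom with sample weights, 947 with the replicate block, 0 with near-identical libraries summed and 507 to 2192 when a library was left out. Upregulated *Fox* genes numbered 2, and 5, 7, 1, 0 and 1 to 6 in the same order. Downregulated *Fox* genes numbered 2, and 4, 4, 1, 0 and 0 to 3. Downregulated *Sox* genes numbered 1, and 3 in limma-voom, 0 with the replicate block, 0 when summed and 0 to 2 when a library was left out, and upregulated ones numbered 0, and 0 to 1 when a library was left out. The replicate block kept *Foxp2* and *Foxl1* as DEGs, and the deviations of same-numbered libraries had correlations of −0.124 to 0.014, so the numbers were not taken to pair the libraries. Summing left none of the 5 member DEGs with an adjusted p under 0.05, with fewer units to compare. Among 26 named members, DESeq2 added *Foxd2*, *Foxq1* and *Foxs1* and lost 0, and limma-voom added 8 and lost 0. RLE and upper-quartile normalization and no filter on low counts changed no call and no sign among these 26. CPM above 1 in 4 libraries, with 25 of them tested, added *Foxd2* (edgeR adjusted p = 0.0491). Outside the 26, *Foxj3* was added by DESeq2, by limma-voom and by upper-quartile normalization. In limma-voom, WT1 and WT2 held most of the WT weight. The sign of *Foxm1* (main −0.30) turned to 0.14 with the replicate block and 0.18 when summed, with −0.71 to 0.27 when a library was left out. *Foxo4* turned to 0.31 in limma-voom and ran from −0.20 to 0.08 when a library was left out, *Foxo1* from −0.02 to 0.15 and *Sox4* from −0.07 to 0.37. None of these 4 genes was a DEG in edgeR, and the cause was not tested. At these depths differences were not detectable in the 15 members without a count and the 8 with at most 3 counts in every library.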
